A study of Mus musculus with 4 samples.

Results

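The cytosolic ribosomal protein genes of the mouse fetal pancreas were followed across 4 stages of development. Members were the protein-coding genes, by GENCODE M21 gene type, whose symbol is Rpl or Rps with a number, plus Rplp0, Rplp1, Rplp2 and Rpsa. The rule took 76 of the 54532 gene IDs, and all 76 reached 1 FPKM or more in at least 1 stage, as did 14828 genes in all. Of the 76, 46 encode proteins of the large (60S) subunit and 30 of the small (40S) subunit, and 4 lie on the X chromosome. The study sequenced total RNA of wild-type C57BL/6 fetal pancreas, which its design text calls pancreatic epithelium, from embryonic day E11.5 over E13.5 and E15.5 to E18.5. The groups shared strain and genotype, carried no named treatment and differed in stage, with 1 sample per stage. The sources used here do not say how the epithelium was isolated or how many fetuses a sample pooled.

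A cytosolic ribosome holds 1 copy of nearly every ribosomal protein, built onto ribosomal RNA in the nucleolus, so cells need these proteins in matched amounts. Their mRNAs begin with a run of pyrimidines, the terminal oligopyrimidine (TOP) motif, through which the kinase mTOR and the protein Larp1 control their translation and stability. In the pancreas, acinar cells, which make digestive enzymes, are known for one of the highest rates of protein synthesis in the body.

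The starts of the genes are shown first, since the pyrimidine run is the sequence feature that the family is known for and the genes that later depart from the family can be compared on it. RefSeq windows (GRCm38.p6) reaching from 250 bases before to 50 bases after a gene's start were matched for 56 of the 76 genes. The 30 bases around the start are printed 5′ to 3′, with the pyrimidine run that touches the start in capitals. Rpl15, Rps6 and Rplp2 were highest at E15.5 like most of the family, Rpl38 and Rpl7a had the largest drop after it, Rps10 and Rpl24 had the lowest levels, and Rpl22 had a small difference early on.
Rpl15, chr14:18270972-18271001, minus strand: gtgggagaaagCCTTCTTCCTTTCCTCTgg
Rps6, chr4:86857353-86857382, minus strand: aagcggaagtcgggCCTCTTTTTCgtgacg
Rplp2, chr7:141447636-141447665, plus strand: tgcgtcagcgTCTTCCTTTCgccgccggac
Rpl38, chr11:114668565-114668594, plus strand: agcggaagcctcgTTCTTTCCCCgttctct
Rpl7a, chr2:26910792-26910821, plus strand: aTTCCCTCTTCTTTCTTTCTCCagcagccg
Rps10, chr17:27635230-27635259, minus strand: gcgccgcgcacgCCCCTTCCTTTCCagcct
Rpl22, chr4:152325711-152325740, plus strand: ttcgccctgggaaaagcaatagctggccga
Rpl24, chr16:55966260-55966289, plus strand: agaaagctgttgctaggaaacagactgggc
The capitals run over 10 bases in Rps6 and 21 bases in Rpl7a, and no run touched the annotated start of Rpl22 or Rpl24 in these windows.

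A C followed by 4 or more C or T within 5 bases of an annotated start was found in 27 of the 56 genes (48.2%), against 21.2% of 27025 genes with a window. Directly at the start it was found in 13 of 56 (23.2%), against 3.01% of all genes. On either strand of the whole window, CCGGAAG, a core recognised by ETS-family factors, was found in 23 of 56 (41.1%) against 9.93%, CACGTG, the E-box that MYC binds, in 10.7% against 8.09%, and TATAAA in 10.7% against 15.7%. The pyrimidine run can overlap the leading Cs of CCGGAAG. The 27 genes with a run near the start and the 29 without had near-equal median log2 differences in each comparison. The medians were 0.88 and 0.80 from E11.5 to E13.5, and -1.47 and -1.46 from E15.5 to E18.5.

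The values deposited by the authors are averages in FPKM (fragments per exon kilobase, scaled by a denominator per library). The length that gave whole reads was that of all annotated exons of a gene. It can far exceed that of 1 mRNA, as in Rps24 (6256 against 519 bases), so levels compare between genes only roughly. The values were scaled between stages by the median ratio of 9884 genes, with factors from 0.962 to 1.03. A difference is given in log2(scaled FPKM + 1). The early step is E13.5 against E11.5, the middle step E15.5 against E13.5 and the late step E18.5 against E15.5. By size, a gene was called higher or lower when 2-fold apart with the higher value at 5 or more. The means could also be split into whole reads of 2 libraries per stage for 45 of the 76 members, at 13 to 8856 reads per library (median 1093). Over the 8 libraries, limma with Benjamini-Hochberg adjustment at 0.05 tested 13498 genes, and only calls by limma are written as rose or fell. Whether the libraries stem from different embryos is stated in no label, so these p-values measure the spread between libraries, which may be technical. The 31 members with no split had no test.

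Markers of the other cells moved with stage. Epithelial markers (Epcam, Cdh1 and others) summed to 1279, 3331, 4152 and 4696 scaled FPKM from E11.5 to E18.5, and pancreatic progenitor markers such as Pdx1 and Ptf1a to 72.9, 407, 362 and 415. Between the first pair of stages, erythroid markers went from 3.19% to 0.0820% of all FPKM, and neuronal and neural crest markers from 0.417% to 0.00735%. In stage order acinar enzymes and regulators held 0.00245%, 1.91%, 22.8% and 14.7%, and endocrine markers held 7.58% at E18.5. None of 8 endothelial markers reached 1 FPKM in any stage, and at E11.5, 8 of 17 acinar markers were at 0. In these bulk samples, fewer cells of a type and less RNA per cell cannot be told apart. The part of cell makeup in the results on the ribosomal protein genes was not tested.

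The ribosomal protein genes climbed from E11.5 to E15.5 and were far lower at E18.5. In stage order their median level was 46.3, 86.8, 159 and 60.6 scaled FPKM. Of the 76 genes, 73 had the order E11.5 below E13.5 below E15.5 with E18.5 below E15.5, an order held by 19.65% of the 14828 genes. E15.5 was the highest stage for 75 genes, against 26.8% of all genes, and Rps10 was the exception, with its highest value at E11.5. The lowest stage was E11.5 for 62 genes and E18.5 for 14, among them Rpl5, Rpl22, Rpl24, Rpl27 and Rps24. Which of these stages was lowest depends on the scaling. The median log2 difference of E18.5 against E11.5 was 0.32 here and -0.25 at the same sum of FPKM.

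**Figure D1:**
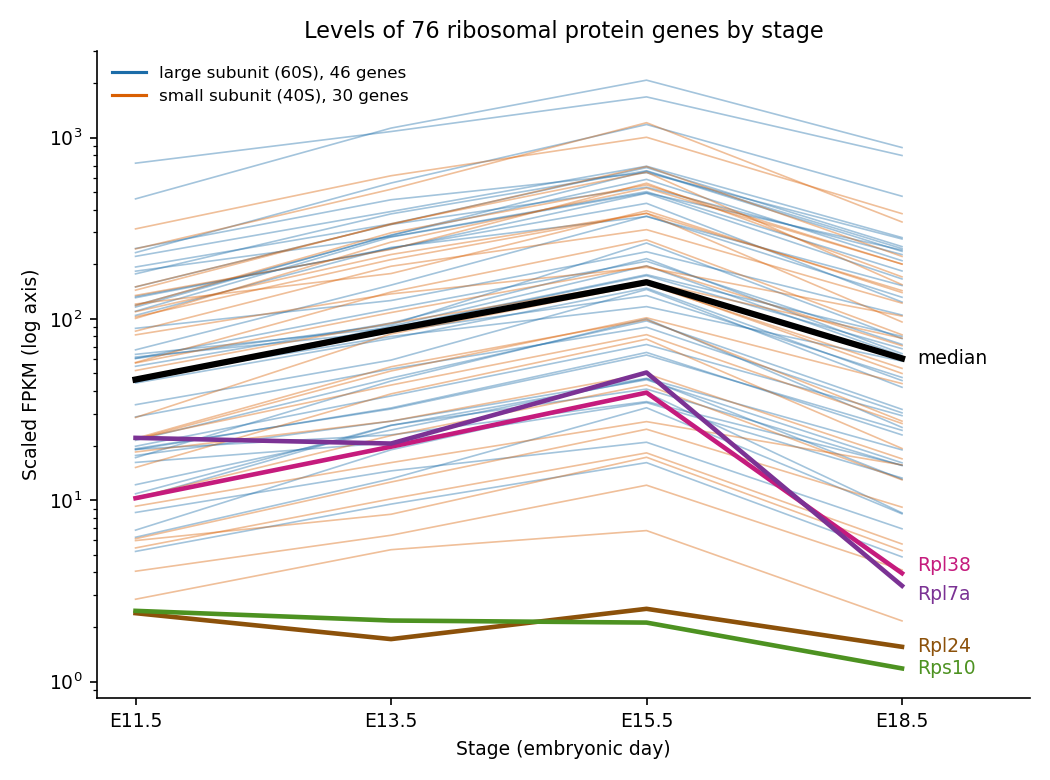
Scaled FPKM (log axis) of each of the 76 ribosomal protein genes at the 4 stages, with 1 thin line per gene (blue, 60S; orange, 40S), the median in black and 4 genes in bold colours. The median goes from 46.3 to 159 and back to 60.6, Rpl7a and Rpl38 drop furthest at E18.5, and Rpl24 and Rps10 stay at the bottom.

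Together the family held 2.06%, 3.71%, 4.46% and 1.88% of all FPKM. Counted as reads, the shares were 1.40%, 2.65%, 3.72% and 1.53%. Acinar markers held 22.8% and 14.7% of the last pair of totals. Over protein-coding genes without the acinar and erythroid markers, the shares were 2.27%, 4.08%, 6.45% and 2.34%. E15.5 was the highest stage on all of these measures.

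Levels differed widely within the family, and their ranking was similar between stages. Across the 76 genes, log2 levels at E11.5 and E15.5 had a Pearson r of 0.974 and a Spearman rho of 0.979, both from means of the same kind of library. The 5 genes of highest mean level were Rplp0, the base of the ribosomal stalk (1135 scaled FPKM), Rpl4 (1068), Rpl13 (612), Rps6, the target of S6 kinase (578), and Rps2 (578). The lowest 5 were Rps10 (1.98), Rpl24 (2.04), Rps28 (4.29), Rps15a (6.68) and Rpl39 (8.93). Ribosomal protein genes have many processed copies in the genome, and 43 of the 76 shared over 50% of the 50-base windows of their mRNA with transcripts of other genes (median 55.65%, from 0 to 98.6% for Rps27). Levels are uncertain where reads could be split among copies, and the sources used here do not state the counting rule. The exon length behind a level also varied, with a median of 1805.5 bases over the members against 774.5 for their mRNAs. Mean log2 level and log2 exon length had a Pearson r of -0.0722 (n = 76 genes). The shared percentage itself did not follow the mean log2 level across members (Pearson r 0.0532, n = 76 genes).

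Between E11.5 and E13.5, 32 of the 76 genes were higher by size and 0 were lower, beside 6.61% and 6.45% of all genes. The median log2 difference was 0.89, against -0.02 over all genes. Of the 45 genes with libraries, 42 rose and 0 fell, beside 31.6% and 37.3% of all genes tested, and Rpl7a, Rpl24 and Rps10 were not called. Genes of both subunits were among them, with 15 of 30 small-subunit genes higher (median 0.96) and 17 of 46 large-subunit genes (median 0.87). At this step 12 of 14 erythroid, 9 of 15 mesenchymal and 7 of 10 neuronal markers were lower by size, and 10 of 10 progenitor markers higher. Their part in the result was not tested.

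The steepest of these rises was Rps16, a protein of the small-subunit head, at 26.8 and 30.4 scaled FPKM in the libraries of E11.5 and at 82.6 ± 10.8 (SD, n = 2 libraries) at E13.5. The E13.5 mean was 2.89-fold higher (limma with Benjamini-Hochberg adjustment, log2 SE 0.10, adjusted p = 2e-05), and the libraries did not overlap. Rps14 of the small-subunit platform went from 101 to 265 (log2 1.39, no library values). Rplp2, a stalk protein that helps recruit elongation factors, stood at 16.0 and 18.3 and then at 50.7 and 40.1 (limma, log2 1.35, SE 0.12, adjusted p = 8.55e-05). Rpl21, of the large subunit, went from 6.84 to 18.97. At the other end, Rpl22, an RNA-binding protein of the exit tunnel rim, stood at 19.1 in both libraries of E11.5 and at 23.2 and 22.6 in those of E13.5 (limma, log2 0.25, SE 0.03, adjusted p = 0.000497). Rpl37 went from 16.2 to 20.8, a difference of 0.34.

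**Figure D2:**
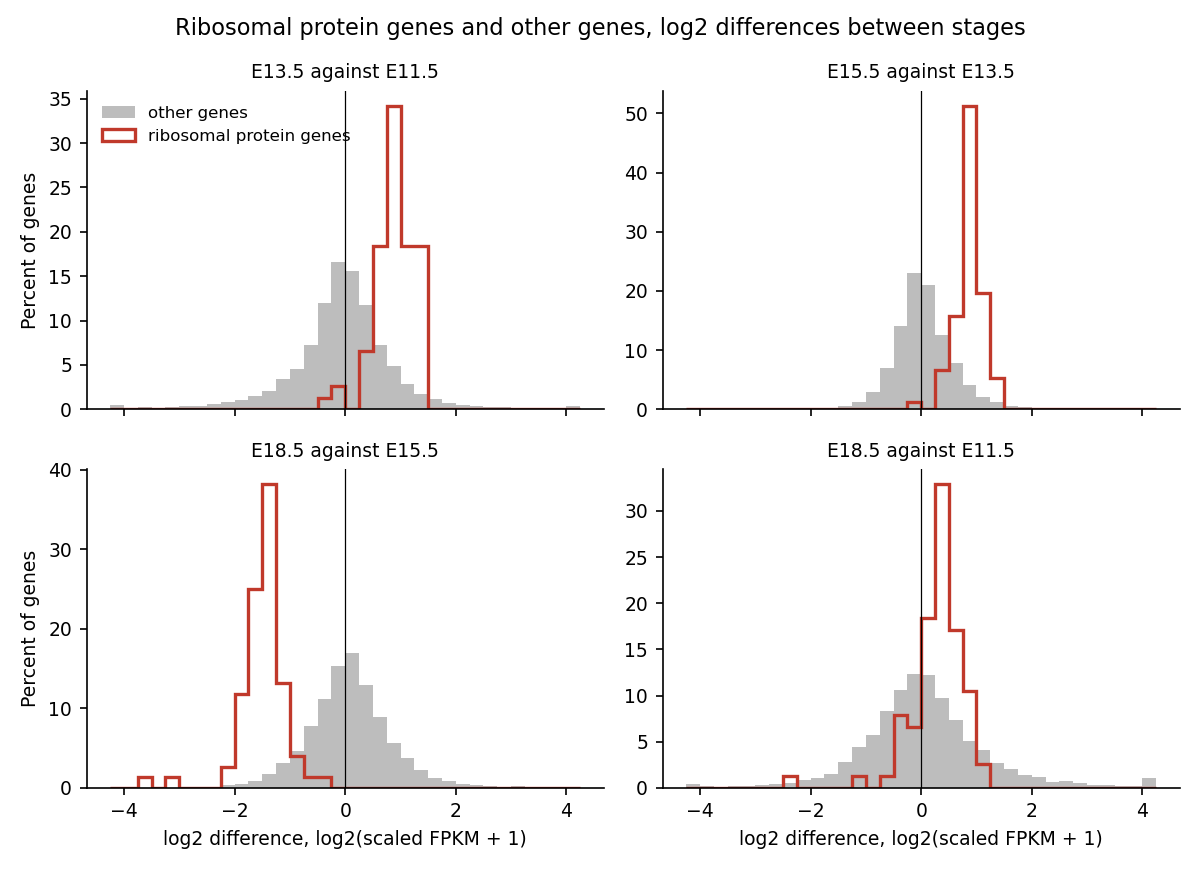
Distribution of log2 differences for the ribosomal protein genes (red outline) and for the other genes at 1 FPKM or more (grey), as a percent of each set, in the 4 comparisons; values beyond 4.2 are drawn at that limit. The red outline sits around 0.89 for the early and middle steps, around -1.47 for the late step, and around 0.32 for E18.5 against E11.5, while the grey bars centre on 0.

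Between E13.5 and E15.5 the median log2 difference was again 0.89, against 0.00 over all genes. By size 22 were higher and 0 lower, beside 4.3% and 2.06% of all genes, and of the 45 with libraries 43 rose and 0 fell, beside 29.2% and 27.6%. Here 16 of the 46 large-subunit genes and 6 of the 30 small-subunit genes were past the rule, though the medians were 0.90 and 0.88. The spread between members was the smallest of the comparisons, with an SD of 0.24 in log2.

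The largest difference was that of Rpl41, the shortest ribosomal protein, at 101 and 84.2 scaled FPKM in the E13.5 libraries and at 252 and 272 in those of E15.5 (log2 1.49, limma SE 0.10, adjusted p = 4.8e-05). Rpl23, which sits at the face between the subunits, stood at 64.9 and 53.6 and then at 145 and 146 (limma, log2 1.29, SE 0.09, adjusted p = 7.16e-05). Rplp1, the partner of Rplp2 in the stalk, stood at 168 and 139 and then at 366 and 371 (limma, log2 1.27, SE 0.10, adjusted p = 9.64e-05). Rps2, next to the mRNA entry site, went from 518 to 1207 and Rpl35a from 13.1 to 32.4. In Rpl41, Rpl23 and Rplp1 both E15.5 libraries lay far above those of E13.5. Rps3, also at the mRNA entry site, went from 137 to 192 (log2 0.48) and Rpl3, at the peptidyl transferase centre, from 454 to 640 (log2 0.50).

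The size of this step depended on the scaling. At this step 16 of 17 acinar markers were higher by size, reaching 22.8% of all FPKM, and their part in the result was not tested. Scaled to the same sum of FPKM, the median of all genes moved to -0.41 and that of the ribosomal protein genes was 0.27. By size 0 of 76 were higher, beside 1.47% of all genes. By limma 21 of 45 rose and 1 fell, beside 1188 and 8293 of 13498 genes tested. Scaled to the same number of reads, the medians were -0.24 and 0.51. There 37 of 45 rose and 0 fell, beside 1948 and 6768 of the genes tested. Relative to all genes, the ribosomal protein genes stood 0.89 higher by the median ratio, 0.68 by the sum of FPKM and 0.75 by reads.

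At E18.5 nearly the whole family was lower than at E15.5. By size 71 of 76 genes were lower and 0 higher, beside 6.27% and 7.3% of all genes, with a median log2 difference of -1.47 (a 2.83-fold drop) against 0.04 over all genes. Of the 45 genes with libraries, 44 fell and 0 rose, beside 31.0% and 38.1% of all genes tested, and Rpl24 was not called. All 45 had both E18.5 libraries below both E15.5 libraries, but how many of all genes had such a separation was not counted. Under the scaling to the same sum of FPKM the median was -1.29 against 0.148 over all genes, with 65 lower and 43 fallen. At that scaling 4.2015% of all genes were lower by size, and 3152 of 13498 genes tested fell by limma. The 5 genes short of 2-fold were Rpl9, Rpl24, Rps3, Rps10 and Rps27.

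Rpl21 went from 39.3 to 8.52 scaled FPKM (log2 -2.08). The highest gene, Rplp0, went from 2072 to 881 (log2 -1.23, no library values). Rps27, a zinc finger protein of the small subunit, changed least among the genes that had clearly climbed before, from 26.3 and 27.9 in the E15.5 libraries to 14.6 and 16.7 at E18.5 (log2 -0.76, limma SE 0.08, adjusted p = 0.000249). Its mRNA shared 98.6% of windows with other transcripts. Markers moved too at this step, with 14 of 14 endocrine markers higher, and 7 of 17 acinar markers higher and 6 lower by size.

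From end to end the family came back to near where it began. At E18.5 against E11.5 the median log2 difference was 0.32, against 0.00 over all genes, but it turned to -0.25 when samples were scaled to the same sum of FPKM, where all genes moved to -0.46, and to 0.01 at the same number of reads. By size 3 genes were higher and 2 lower, beside 11.2% and 8.52% of all genes. Among the 3 were Rpl13 (232 to 475 scaled FPKM) and Rps19 (21.6 to 44.0), the latter known from Diamond-Blackfan anaemia, a failure of red cell production. With no further scaling 1 of the 3 passed, and none of the 3 at the same sum of FPKM or the same number of reads. The 2 lower genes, Rpl7a and Rpl38, passed under each of these scalings. By limma 20 of 45 rose and 6 fell (Rpl7a, Rpl13a, Rpl22, Rpl27, Rpl38 and Rps10), beside 37.0% and 38.5% of all genes. The call of Rpl13a (limma, adjusted p = 0.0481) was lost without either library of E11.5 or library 2 of E18.5 (adjusted p from 0.096 to 0.215), and that of Rpl27 (0.0135) without library 2 of E11.5 (0.0819) or library 1 of E18.5 (0.0781). The counts became 3 and 23 at the same sum of FPKM. There 2998 of all 13498 genes tested rose and 8019 fell, so falls were common among all genes. Without library 1 of E11.5 fewer members rose, and fewer of all genes tested rose too.

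**Figure D3:**
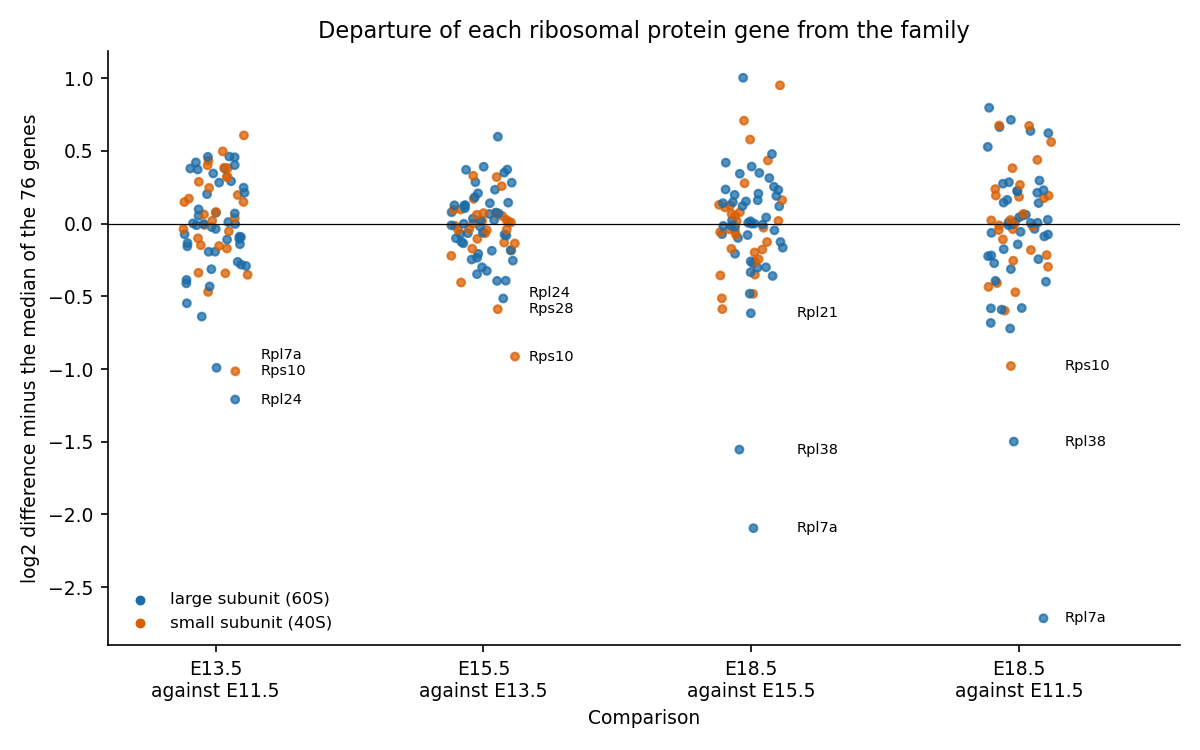
For each comparison, the log2 difference of each of the 76 genes minus the median of the family (blue, 60S; orange, 40S; points are spread sideways at random), with the 3 lowest genes of each comparison named. Most points lie within 0.5 of the median, and Rpl7a and Rpl38 lie 2.09 and 1.55 below it at the late step.

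A departure from the family median does not depend on the scaling of the stages, apart from the pseudocount. Within 0.5 log2 of the family median lay 70 of 76 genes at the early step, 72 at the middle step, 67 at the late step and 58 between the first and last stages. How many of all genes lay as near to the median of all genes was not counted. These counts alone therefore do not show that the family was tighter than other genes. The SD of the log2 differences over the 76 genes was 0.36, 0.24, 0.43 and 0.51, against 1.03, 0.64, 0.79 and 1.31 over all genes.

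Rpl7a, a large-subunit protein, departed most. Its gene (ENSMUSG00000062647, mm10 chr2:26910764-26913318) holds 3 snoRNA genes. It stood at 27.9 and 16.2 scaled FPKM in the E11.5 libraries, then 17.4 and 23.6, then 32.0 and 69.2, and last 3.11 and 3.65. The E18.5 values rested on 71 and 83 reads. The libraries of E15.5 differed by more than 2-fold, the widest split of any member at that stage, yet both lay far above those of E18.5. At the late step the log2 difference was -3.46 (limma, SE 0.39, adjusted p = 3e-04), and it stayed between -2.92 and -4.01 when any of the 4 libraries was left out. At the middle step it rose by 1.18 (SE 0.39, adjusted p = 0.0416), a call lost without E13.5 library 1, E13.5 library 2 or E15.5 library 2 (adjusted p = 0.172, 0.0747 and 0.182). Relative to the median of the 45 split members in the same library, Rpl7a lay in log2 at -1.30 and -0.26 in the E15.5 libraries, then at -2.67 and -2.61 in those of E18.5.

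Rpl38, a small protein of the large subunit known in mouse for its part in the translation of Hox mRNAs and skeletal patterning, stood at 8.15 and 12.4, then 22.9 and 16.6, then 39.2 and 39.2, and at E18.5 at 4.74 and 3.18 scaled FPKM. It lay below the family median in every library, and further below it at E18.5, where its reads were few (33 and 22). Its gene is ENSMUSG00000057322 (mm10 chr11:114668524-114672331). The log2 difference at the late step was -3.04 (limma, SE 0.24, adjusted p = 5.34e-05), from -2.81 to -3.27 with any of the 4 libraries left out. By limma the early rise (0.89, adjusted p = 0.0143) was lost without library 1 of E11.5 (adjusted p = 0.0974) or library 1 of E13.5 (0.0818). The middle rise (0.97, adjusted p = 0.0129) was lost without library 2 of E13.5 (adjusted p = 0.0731) or either library of E15.5 (0.0571 and 0.0568). Relative to the 45 members, Rpl38 lay between -0.81 and -1.21 in the 6 libraries up to E15.5, and at -2.18 and -2.77 in those of E18.5. The mRNAs of Rpl7a and Rpl38 shared 81.2% and 52.1% of their windows with other transcripts.

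Named processed pseudogenes of both genes had smaller differences at the late step. Rpl7a-ps5 stood at 20.4 and 21.7 scaled FPKM before the late step and at 6.10 and 6.62 after it (log2 -1.58). Rpl38-ps2 stood at 18.6 and 20.2 and then at 9.87 and 11.8 (log2 -0.79), so that at E18.5 it lay above Rpl38 itself. Whether reads moved between gene and copy was not tested.

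Rps10 and Rpl24 stayed between 0.98 and 2.88 scaled FPKM in every library. Rps10, a small-subunit protein at the mRNA entry side, stood at 2.88 and 2.03, then 2.04 and 2.31, then 1.98 and 2.25, and last 1.35 and 1.02. It was not called at the early or middle step and fell by 0.52 at the late step (limma, SE 0.14, adjusted p = 0.0146), a call lost without library 2 of E15.5 (0.0763) or library 2 of E18.5 (0.0823). Rpl24, which forms a bridge between the subunits, stood at 2.44 and 2.33, 1.88 and 1.55, 2.86 and 2.18, and 0.98 and 2.13, and was called in none of the 4 comparisons (limma, adjusted p from 0.0809 to 0.224). Reads were few, from 13 to 46 per library for Rpl24, and 56.8% and 81.7% of the windows of the mRNAs were shared.

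**Figure D4:**
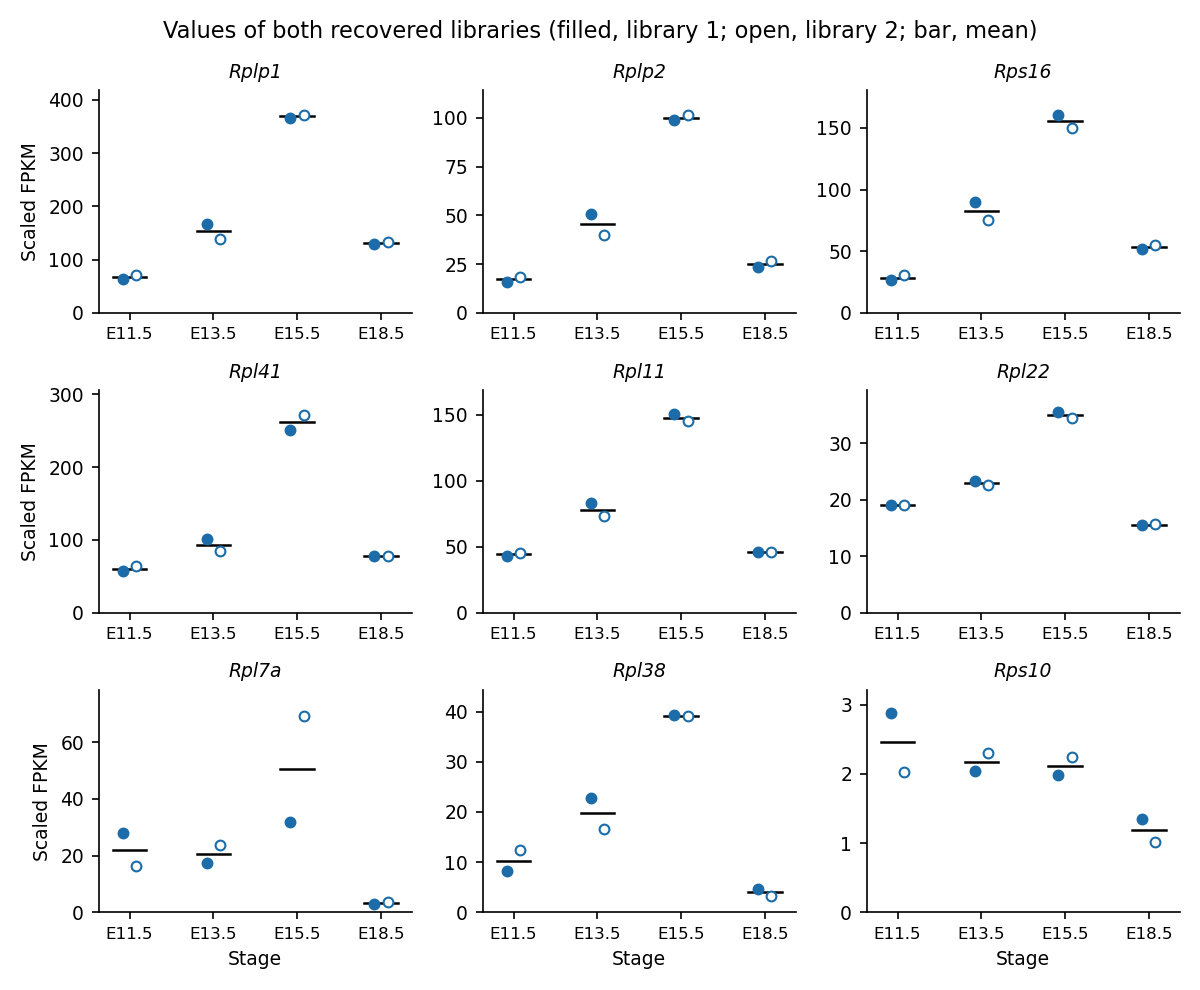
Scaled FPKM of 9 ribosomal protein genes in both recovered libraries of each stage (filled, library 1; open, library 2; bar, their mean; each axis starts at 0). Rplp1, Rplp2, Rps16, Rpl41 and Rpl11 peak at E15.5 with close libraries, Rpl7a libraries differ 2-fold at E15.5, and Rps10 lies between 1 and 3 throughout.

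The libraries of a stage differed in the family as a whole at the early stages. At E13.5, 40 of the 45 genes were higher in library 1, with a median log2 difference of 0.24, while the median over 13498 genes was 0.00 (46.98% higher in library 1). At E11.5, 39 of 45 were higher in library 2 (median -0.15, against 0.00 over all genes, with 48.65% of them higher in library 1). At E15.5 and E18.5 the medians were 0.00 and -0.04. The median coefficient of variation of a member between libraries was 8.11%, 13.25%, 3.10% and 3.93% in stage order. Members measured in 1 library share that library.

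By role, the stalk had the highest medians at the early and middle steps among the groups described. The 4 genes of the stalk and its base (Rplp0, Rplp1, Rplp2 and Rpl12), which draws in elongation factors, had median log2 differences of 1.23, 1.06 and -1.48 over the 3 consecutive steps. They did not move alike. At the early step Rpl12 (0.74) lay below the family median of 0.89, and Rplp0, Rplp1 and Rplp2 lay above it. At the middle step Rplp0 (0.88) lay just below the family median of 0.89, and Rplp1, Rplp2 and Rpl12 lay above it. The 8 genes at the rim of the exit tunnel, where new chains leave, had 0.87, 0.77 and -1.52, and all 8 were lower by size at the late step. The 5S RNP pair Rpl5 and Rpl11, which also bind the p53 regulator Mdm2 when assembly fails, had 0.85, 0.87 and -1.74. Rpl11 stood at 43.1 and 45.5 scaled FPKM, then 83.0 and 73.0, then 151 and 145, and last 45.6 and 45.8, so its first and last stages lay close together (log2 0.04, limma SE 0.06, adjusted p = 0.549). The 5 genes at the mRNA entry and decoding sites had 0.91, 0.95 and -1.49. The 18 genes mutated in Diamond-Blackfan anaemia had 0.90, 0.86 and -1.51, with 16 lower by size at the late step. The 6 measured genes named in work on specialised ribosomes had 0.86, 0.96 and -1.65. At the late step 93.4% of the whole family was lower by size, beside 6.27% of all genes, so these counts repeat the rate of the family.

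The subunits kept near-equal pace. Summed scaled FPKM of the small subunit over that of the large was 0.493, 0.533, 0.557 and 0.475, and the median level per gene was 48.7 and 46.2 at E11.5 and 159 and 160 at E15.5.

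Ribosomal proteins and paralogs outside the symbol rule took a like course, with exceptions. Of 15 in the files, 12 were measured, with medians of 0.70, 0.62 and -1.03 at the consecutive steps, where 4 were higher, 2 higher and 7 lower by size, beside 6.61%, 4.3% and 6.27% of all genes. Rps3a1, a small-subunit protein, stood at 530, 1171, 1711 and 746 scaled FPKM, against 459, 1127, 2072 and 881 for Rplp0. Fau, the precursor of small-subunit eS30, stood at 67.7, 127, 231 and 94.8, and Rack1, a signalling scaffold on the 40S head, at 83.7, 162, 290 and 93.2. Rps27l, a paralog of Rps27 known as a p53 target, stood at 53.1 and 59.6, then 125 and 102, then 416 and 440, and last 107 and 106. Its rise from E13.5 to E15.5 (log2 1.91, limma SE 0.10, adjusted p = 2.31e-05) was larger than that of any of the 76 genes. Rpl22l1 and Rpl7l1 rose at the early and middle steps and fell at the late step by limma, and Rpl34-ps1, Rpl9-ps6 and Rps27rt stood at 2.74 to 15.3. The testis paralogs Rpl10l and Rpl39l were listed at 0 in every stage, Rpl3l of muscle stayed at 0.11 or less, and Rpl36al at 1.88 to 3.40. The non-coding copy Rps4l was high throughout (235, 331, 399 and 248).

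Of 301 annotated ribosomal protein pseudogenes, 79 reached 1 FPKM, and together the pseudogenes summed to 12.4% to 13.7% of the members' FPKM in each stage. Their median log2 differences were 0.66, 0.73 and -1.09 at the consecutive steps, in the same direction as the genes at each.

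Other genes of translation had smaller medians than the ribosomal proteins. Median log2 differences over the 3 steps were 0.53, 0.62 and -1.08 for 9 measured elongation factors and associated genes, 0.28, 0.60 and -1.01 for 17 other TOP mRNA genes, and 0.05, 0.25 and -0.64 for 34 initiation factors. These lists share genes. Eef1a1, the highest of them, which carries aminoacyl-tRNA to the ribosome, stood at 898, 1419, 2521 and 1328 scaled FPKM. Eef2, the translocase, went from 151 to 438 between E13.5 and E15.5, and Pabpc1, the poly(A)-binding protein, rose there by 1.55 (limma, SE 0.04, adjusted p = 2.83e-06). Vim, also a TOP mRNA but a marker of mesenchyme, went the other way, from 112 at E11.5 to 27.5 at E15.5. Eif1, at 374 to 422 in all stages, was the highest initiation factor and moved by at most 0.17.

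**Figure D5:**
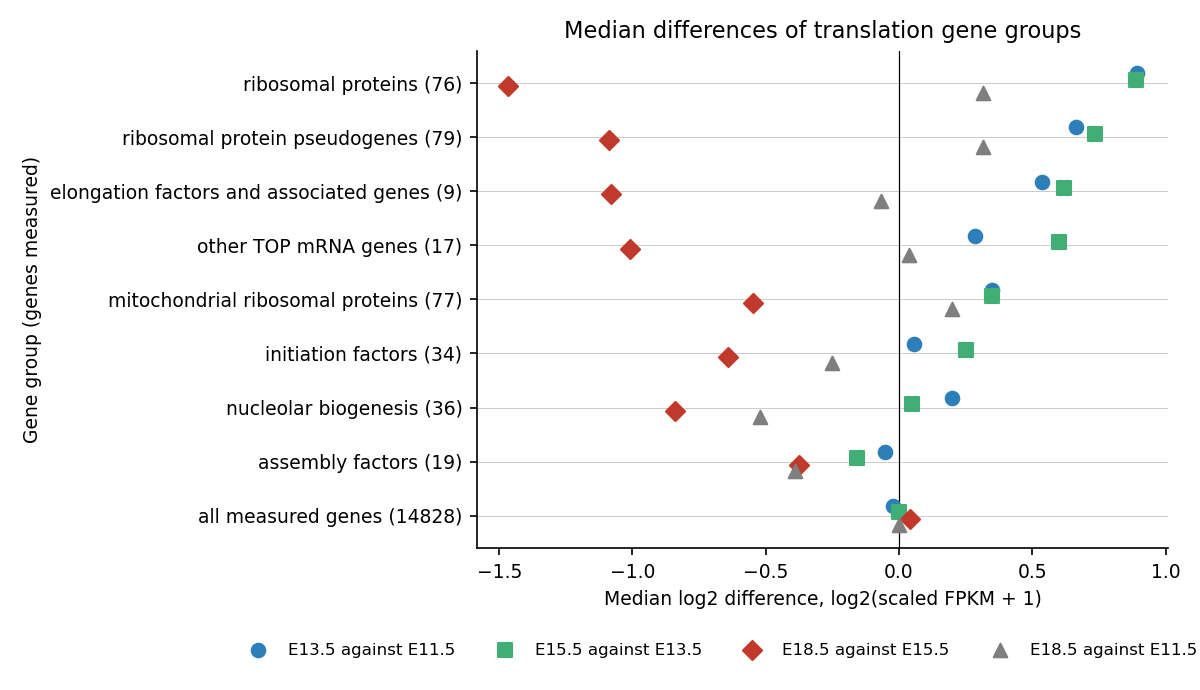
Median log2 difference of 9 gene groups in the 4 comparisons (circle, E13.5 against E11.5; square, E15.5 against E13.5; diamond, E18.5 against E15.5; triangle, E18.5 against E11.5), with the number of genes measured. The ribosomal proteins lie furthest out at the 3 consecutive steps (0.89, 0.89 and -1.47), and the nucleolar genes lie at 0.20 and 0.05 before E15.5 and at -0.84 after it.

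Nucleolar genes of ribosome assembly had lower medians on the way up. Of 36 genes, 4 were higher by size at E13.5 (Fbl, Nop10, Polr1b and Tsr1) and 0 at E15.5, beside 6.61% and 4.3% of all genes, with medians of 0.20 and 0.05. By limma 14 of 30 tested rose and 6 fell at the early step, beside 31.6% and 37.3% of all genes. At the middle step 14 rose and 8 fell, beside 29.2% and 27.6%. At the late step 14 were lower (median -0.84), beside 6.27% of all genes, and 29 of 30 tested fell, beside 31.0%. Npm1, the main nucleolar chaperone, stood at 396, 487, 527 and 168 scaled FPKM. Fbl, the rRNA methyltransferase, stood at 41.7 and 41.9, 90.0 and 89.9, 92.8 and 91.7, and 37.96 and 37.1, so E13.5 and E15.5 lay close together (log2 0.04 between E13.5 and E15.5, limma SE 0.03, adjusted p = 0.309). Among 19 chaperones and assembly factors the medians were -0.05, -0.16 and -0.37. The import receptors Kpnb1 and Ipo4 were higher by size at E15.5, and Kpnb1, Ipo4, Ipo5, Ipo7 and Nap1l1 were lower at E18.5.

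Of 21 genes that regulate mTOR or TOP mRNAs, 7 rose and 6 fell of 17 tested at the early step, 11 rose and 3 fell at the middle step, and 2 rose and 11 fell at the late step. Over all genes tested, 31.6% rose and 37.3% fell at the early step, 29.2% and 27.6% at the middle step, and 38.1% and 31.0% at the late step, so the early counts were near the background. Larp1 itself stood at 15.8 and 14.6, 32.7 and 34.3, 60.5 and 66.1, and 22.5 and 22.2, with log2 differences of 1.09, 0.90 and -1.46 (limma, SE 0.06 each, adjusted p = 7.75e-06, 5.18e-05 and 3.48e-06). Myc, a known activator of ribosomal genes, stood at 10.1, 57.1, 50.3 and 17.9, and Mycn fell from 24.7 to 12.6 and 2.48 before rising to 9.05. Mtor, the kinase itself, lay between 1.25 and 1.98. Among 11 genes of p53 and 5S RNP surveillance, 9 were measured, and their medians were -0.28, 0.28 and -0.08. Cdkn1a, a p53 target that halts the cell cycle, stood at 22.2, 88.2, 97.6 and 116. The 77 measured mitochondrial ribosomal proteins had medians of 0.35, 0.35 and -0.55.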

How the data were processed

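RNA-seq of 4 stage samples was aligned with HISAT2 2.0.5 to mm10, per the submitters' processing notes; no source used here names the counting tool. The authors deposited 1 FPKM value for each Ensembl gene ID, which the column header calls an average. Symbols, types and exon lengths came from GENCODE M21. The members and gene lists were chosen with earlier results of these data known. Values were divided by median-of-ratios factors over the 9884 genes that reached 1 FPKM at all 4 stages. Log2 differences of the deposited FPKM used a pseudocount of 1, which understates changes of low genes. FPKM times exon length gave whole reads of 2 libraries per stage, split where 1 pair of whole reads fitted within 1.05 of the last printed place. The split succeeded for 96.0% to 96.5% of genes attempted, and 861 to 899 genes per stage had no fitting pair. On simulated means, 285302 splits were right and 0 wrong. The simulation took the exon lengths as right, so it cannot give the error rate where a real length differs. Library 1 is the one with the larger denominator. No label states this split, which was read from the values alone. Reads were 0.899 to 1.26 times the denominators, which are therefore not plain read totals. limma 3.58.1 (R 4.3.3, mean-variance trend) tested 13498 genes with Benjamini-Hochberg adjustment at 0.05. In a simulation of the early step over 13498 genes it called 84% of 2-fold rises, 44% of 1.5-fold rises, and 9 of 13298 genes left as they were. The simulated libraries had 1 low fixed spread beyond counting noise and no shift shared by genes. At E13.5 the members had a median coefficient of variation of 13.25% and shifted together, so the simulated rates may not hold there. Window sharing is the percent of 50-base windows of an mRNA found in transcripts of other genes. Named members are the 5 highest and 5 lowest, the 5 furthest above and below the family median in each comparison, and those of the role groups described; not each is described, and some items are not reported here. Other genes were named as the largest past the rule of size or highest in their list. Mtor, Rpl15, Rpl7a-ps5 and Rpl38-ps2 were named after their values were seen. Alternatives covered scaling, pseudocount, the fold and level limits, shared sequence and leaving out each library.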

Additional observations from a re-analysis of the deposited data

How the results depend on the processing

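No paired analysis was possible because the labels give 1 sample per stage and no replicate numbers. Limits: the calls rest on 2 libraries per stage recovered from means, 31 members could not be split, and the middle step depends on the scaling. The causes of the changes below were not tested.

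The fold limit of 1.5 gave 64, 68 and 15 genes higher at the early step, at the middle step and between the first and last stages. The shares of all genes were 11.9%, 9.52% and 16.4%, so the 15 of 76 lay near the background. For E15.5 against E13.5, the same sum of FPKM gave 0 higher with a median of 0.27, the same number of reads 1 higher with 0.51, and the same sum without acinar, endocrine and erythroid markers 4 higher with 0.60. Among all genes, 1.47%, 2.12% and 2.49% were higher under these scalings. By limma the same sum gave 21 rose and 1 fell, beside 1188 and 8293 of 13498 genes tested. For E18.5 against E15.5 the median was -1.56 with no further scaling, -1.29 at the same sum, -1.50 with a pseudocount of 0.1, -1.35 over the 13 members sharing under 10% of the windows of all their exons (up to 61.3% of those of the mRNA), -1.34 at the same number of reads and -1.31 at the same sum without markers. For E18.5 against E11.5 the higher genes numbered 1 with no further scaling and 0 under the other 3 scalings, and the median reversed to -0.25 at the same sum, with 0.012 at the same number of reads and 0.048 without markers. Shares of all genes higher were 10.7% with no further scaling and 6.87% to 8.91% under the other 3. By limma 3 rose and 23 fell at the same sum, and 8 rose and 13 fell at the same number of reads. Of 13498 genes tested, 2998 rose and 8019 fell at the same sum, and 3848 and 6808 at the same number of reads. Over the 13 members, 7.69% were higher at the middle step, in place of 28.9%, and between the first and last stages 7.69% were higher and 0% lower. The background was 4.3% higher at the middle step, and 11.2% higher and 8.52% lower from first to last. The SD of the 13 members was 0.19 at the middle step, 0.22 at the late step and 0.41 between the first and last stages. Without Rpl7a and Rpl38 the SD was 0.31 at the late step and 0.37 between the first and last stages. Shares of all FPKM became 2.27%, 4.08%, 6.45% and 2.34% without markers, and 1.40%, 2.65%, 3.72% and 1.53% of reads.

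Leaving out in turn each library of the stages compared gave 37 to 41 rises at the early step, 40 to 41 rises at the middle step, 43 to 44 falls at the late step, and 11 to 19 rises and 4 to 7 falls between the first and last stages. Leaving out a library of another stage, which enters through the shared estimate of spread, gave 41 to 42 rises, 42 to 43 rises, 44 falls, and 19 to 26 rises with 5 to 6 falls in the same order.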
